A study of Mus musculus with 14 samples.

Results

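Sorted mammary cells from mice at day 12.5 of pregnancy are described here, with 4 arrays of the MaSC-enriched population set against 4 arrays of the luminal population. The 8 arrays were taken by their labels (day 12.5 of pregnancy and the sorted population) out of 14 in the series. The other 6 arrays, 3 of each population from virgin mice, serve to ask whether a difference between the populations also held before pregnancy. They also enter the normalization, the filter on probes and the shared estimate of spread behind the pregnancy p-values. All mice were female and of the FVB/NJ strain, with no allele or agent named for any group. Glands were digested to single cells, cells carrying CD45, CD31 or TER119 were removed, and the rest were sorted by CD24 and CD29 into CD29hi CD24+ cells (MaSC-enriched) and CD29lo CD24+ cells (luminal) at a purity above 90%. Each population came from pools of mice, 4 pools for pregnancy and 3 for virgins, but the labels do not tie an array to a pool, and p-values measure the spread between these arrays. At most 250 ng of RNA per sample carried the Cy3 label and was hybridised to Illumina BeadChips, which read one colour. In such bulk samples fewer cells of a type and less RNA per cell cannot be told apart.

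The mammary epithelium is a bilayer. Basal cells, most of them contractile myoepithelium with a minority able to regrow a gland on transplantation, lie on the basement membrane and squeeze milk out in response to oxytocin. Luminal cells line the ducts and, in pregnancy, build the alveoli under progesterone and prolactin, partly through RANK ligand and the transcription factors STAT5A and ELF5, until they secrete milk proteins and fat.

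Levels are log2 normalized intensities, given for replicates 1 to 4 in order, and a difference is the MaSC-enriched mean minus the luminal mean on that scale, so a negative value means higher in luminal cells. The test was limma's moderated test with Benjamini-Hochberg adjusted p below 0.05, and SE is its standard error. Between 34.8% and 40.6% of probes were detected per array, and median raw intensity ran from 105 to 165 units. Arrays of a population correlated with each other at 0.978 to 0.988 (MaSC-enriched) and 0.966 to 0.990 (luminal), and across populations at 0.835 to 0.879. Intensity stops rising near log2 14.95, so a gene with a group mean of 14 or more may have its difference compressed, and such genes are said to lie near the top of the scale.

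The sort could be checked against the genes that define each layer. Basal Krt5, a keratin of basal epithelia, stood at 10.97, 10.92, 11.25 and 11.24 on the MaSC-enriched arrays and at 5.01, 5.37, 5.28 and 5.61 on the luminal arrays, where it was not detected. It was at least 38.8-fold higher in the MaSC-enriched population (difference 5.78, SE 0.45, adjusted p = 8.24e-08). Krt18, a keratin of simple epithelia, was the reverse, at 10.97, 12.11, 11.17 and 11.11 against 14.10, 14.07, 13.78 and 13.90, a difference of -2.62, SE 0.30, adjusted p = 4.85e-06. In both genes the groups lay far apart on every array. Genes of surface proteins were read too. Itgb1, which encodes CD29, differed by 1.34, SE 0.24, adjusted p = 0.000441, although its second probe did not pass (0.97, adjusted p = 0.0715). Itga6, which encodes CD49f, differed by 1.90, SE 0.25, adjusted p = 1.99e-05, although the other 2 probes of Itga6 did not pass (0.48 and 1.25). Cd24a, which encodes CD24, was higher in luminal cells (-1.25, SE 0.29, adjusted p = 0.00324), a call that ended under median scaling (adjusted p = 0.0541).

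Krt14 and Acta2, the best known basal markers, did not pass in the fit of all 14 arrays, and both passed when only the 8 pregnant arrays were fitted (adjusted p = 0.0023 and 0.000524). Krt14 read 14.27, 14.36, 14.33 and 14.50 in MaSC-enriched and 13.63, 13.77, 13.74 and 13.72 in luminal cells (0.65, SE 0.40, adjusted p = 0.226) near the top of the scale, although every MaSC-enriched array was above every luminal array. The brightest probe of Acta2, smooth muscle actin, differed by 0.92, SE 0.40, adjusted p = 0.0801, while its 4 other probes, with luminal means of 4.76 to 11.2, differed by 3.21 to 4.07 and all passed. Blocking on chip also brought the brightest probe below the threshold (adjusted p = 0.0496). Oxtr, the oxytocin receptor, was detected on 0 of 4 arrays of either population and was not tested.

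**Figure D1:**
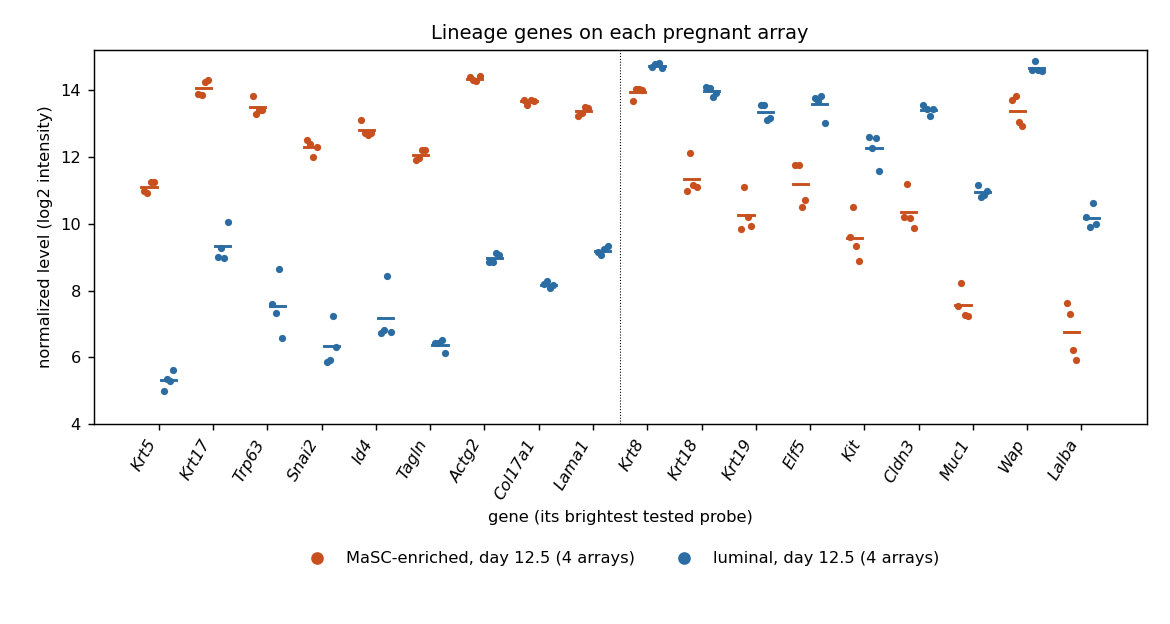
Level (log2 normalized intensity) of 18 genes on each array from pregnant mice, with the 4 MaSC-enriched arrays in orange, the 4 luminal arrays in blue and a bar at each group mean; heights are not comparable between genes. The groups are apart for all 18 genes, by 5.78 for Krt5 and by only 0.80 for Krt8, and Trp63, Snai2 and Id4 are highest among luminal arrays in replicate 3.

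Cells outside the epithelium were looked for with lists of their markers. Pericyte markers gave a summed intensity of 1337 to 4822 on the MaSC-enriched arrays and 409 to 616 on the luminal arrays, and 5 of 6 tested markers were higher in MaSC-enriched cells, led by Rgs5 (2.87, SE 0.52, adjusted p = 0.000397). Endothelial markers gave 1813 to 7395 against 1034 to 1743, with 5 of 6 higher, and replicate 2 of the MaSC-enriched arrays was the highest in each of Cldn5, Cdh5, Emcn, Pecam1 and Tek. Without that array 1 endothelial and 4 pericyte markers passed. With chip as a block none of the 5 endothelial calls held (adjusted p = 0.0633 to 0.133), while 6 pericyte markers passed. Kdr, a defining endothelial receptor, was not detected on any of the 8 arrays.

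Fibroblast markers summed to 21471 to 32142 in MaSC-enriched and 3140 to 14014 in luminal cells. Dcn (2.55, SE 0.39, adjusted p = 8.75e-05, near the top of the scale) and Thy1 (1.96, SE 0.45, adjusted p = 0.0028) passed among 9, and 6 passed without luminal replicate 3, the luminal array with the highest sum. Col3a1 (1.43, adjusted p = 0.119) and Pdgfra (1.30, adjusted p = 0.208) overlapped between the groups. Leukocyte markers were low on all 8 arrays (274 to 376 against 110 to 273), with Ptprc, which encodes CD45, detected on none, and Cd3e called by a probe (1.54) that its other probe contradicted (-1.44). Of 6 adipocyte markers on the array, Plin1, Cidec, Fabp4 and Retn were detected on no array, while Lep was higher in MaSC-enriched cells, at least 8.44-fold (3.85, SE 0.31, adjusted p = 1.19e-07). Adipoq did not pass (1.28, adjusted p = 0.137). It passed with array weights, with chip as a block and when only the 8 pregnant arrays were fitted. Erythroid markers ran the other way. Alas2, a heme enzyme of red cell precursors, was higher in luminal cells (-1.44, SE 0.37, adjusted p = 0.00622), the 2 erythroid markers summed to 994 to 3044 in MaSC-enriched and 1640 to 8852 in luminal cells, and both passed with chip as a block. Mbp, a myelin protein, was higher in luminal cells (-2.74, SE 0.56, adjusted p = 0.00113), but its probes disagreed and their mean did not pass. Sox10, the other tested marker of Schwann cells, did not pass (-0.002, adjusted p = 0.997). Among skeletal muscle markers Acta1 was higher in MaSC-enriched cells (2.91, SE 0.55, adjusted p = 0.000599), with Ckm and Myh4 detected on no array. Tnnt3 (0.16) and Mb (-0.06) did not pass. The part of other cell types in the differences below was not tested.

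**Figure D2:**
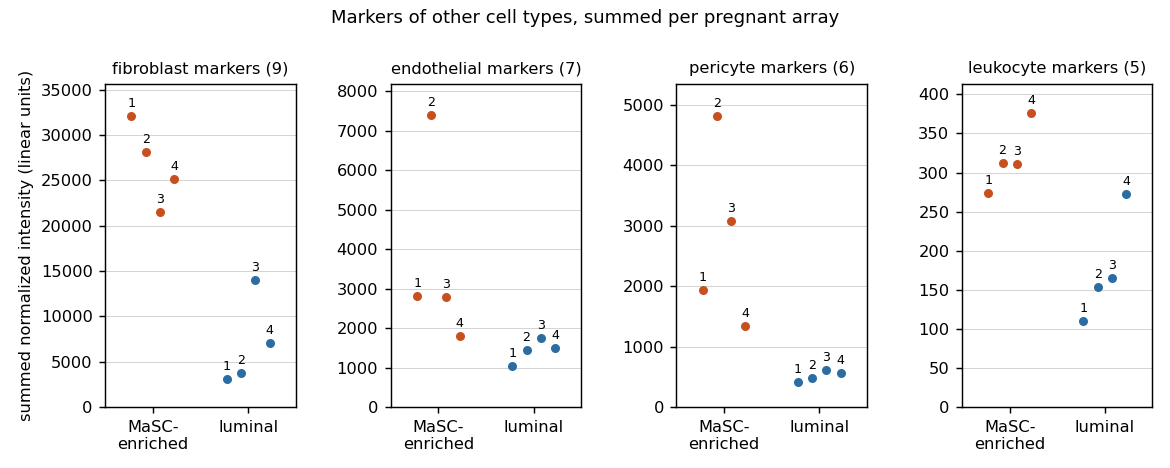
Summed normalized intensity (linear units, from 0) of all markers on the array of 4 other cell types, with the number of markers in brackets, for each MaSC-enriched (orange) and luminal (blue) array from pregnant mice; the digit is the replicate. The MaSC-enriched arrays lie above the luminal arrays for each list, with endothelial and pericyte sums highest in replicate 2 (7395 and 4822) and the luminal fibroblast sum highest in replicate 3 (14014). For leukocyte markers the groups only just part, the lowest MaSC-enriched sum being 274 and the highest luminal sum 273.

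Across the genome the populations differed at 4905 of 11350 tested genes, 43.2%. Of these, 2290 were higher in the MaSC-enriched population (20.2% of tested genes) and 2615 in the luminal population (23%). The groups of 4 arrays did not overlap at all for 5674 genes (50%). The MaSC-enriched differences were the larger ones: the median called difference was 1.51 there and -1.05 on the luminal side, and 793 genes (6.99%) were at least 4-fold higher in MaSC-enriched cells against 440 (3.88%) in luminal cells. At 16-fold, a size chosen like the 4-fold one after the values were seen, the counts were 186 and 8. The balance of directions moved with the scaling: MaSC-enriched genes were 46.7% of the called genes here, 56.6% under cyclic loess and 55.0% under median scaling, while the median difference of all genes went from -0.10 to 0.02 and -0.00. Genes are read below against these shares and against the all-gene median of -0.10.

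Populations shared BeadChips only in part. Chip 3 held MaSC-enriched replicates 1 to 3 and luminal replicate 3, chip 4 held the fourth replicate of both, and luminal replicates 1 and 2 were on chip 1. Within chip 3, 99.9% of the called genes had the same direction, and within chip 4, 99.4%. These genes were called from the same arrays, so much of that agreement is built in and it is no separate test. The share over all tested genes was not computed. With chip as a block, 2270 genes were higher in MaSC-enriched and 2663 in luminal cells. When only the 8 pregnant arrays were fitted, the counts were 2695 and 3239.

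**Figure D3:**
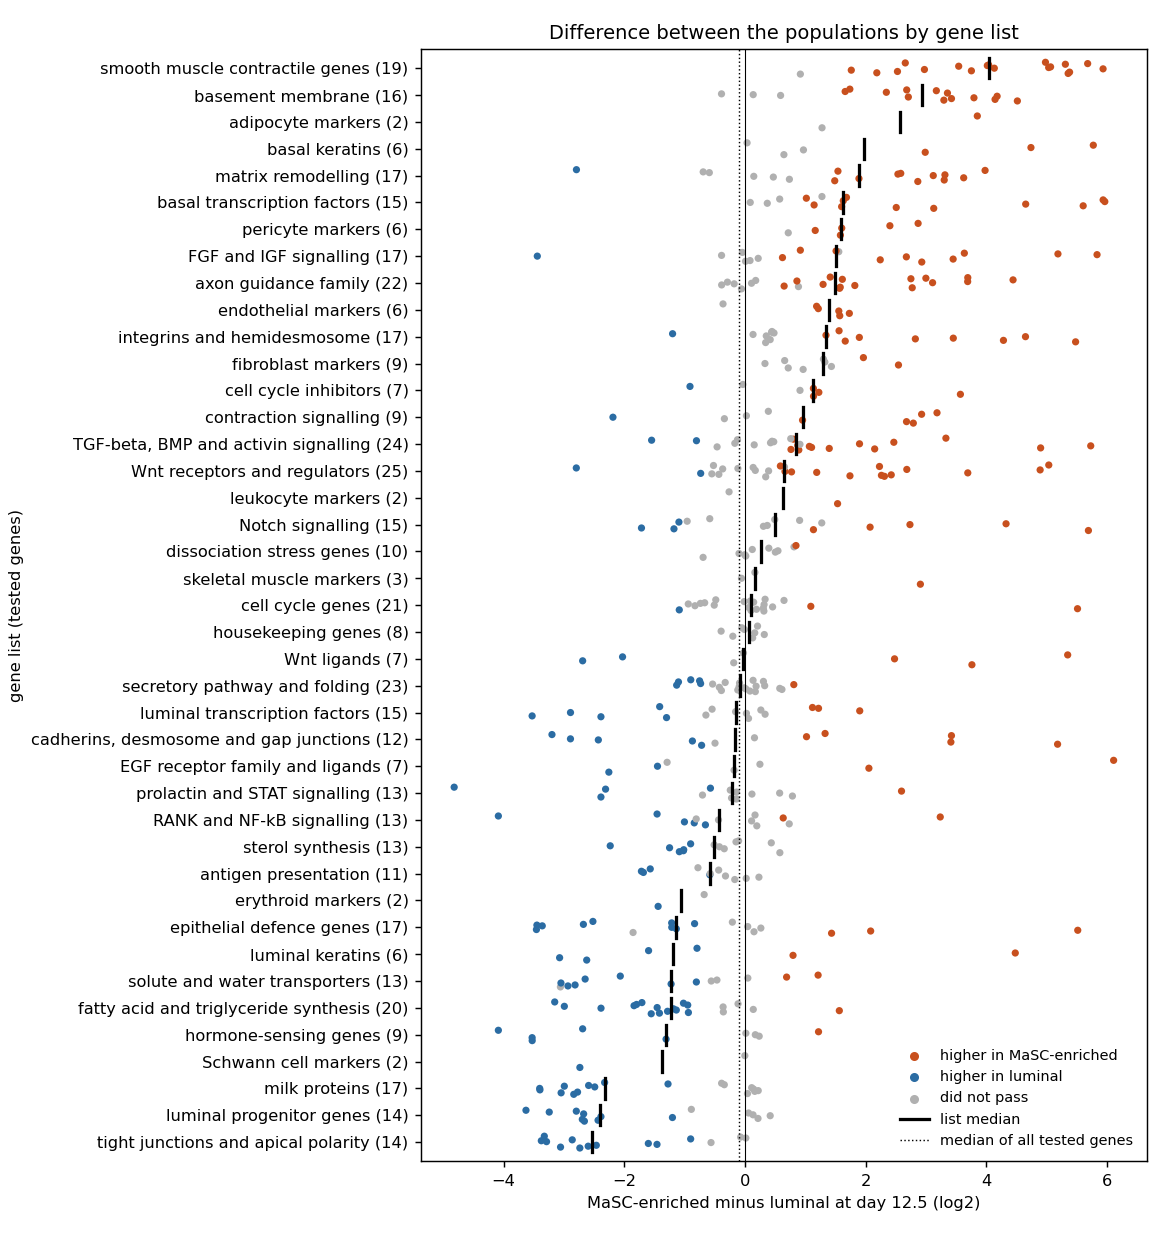
Difference between the populations at day 12.5 (MaSC-enriched minus luminal, log2) for each tested gene of 41 lists, ordered by the list median (black bar), with the number of tested genes in brackets; orange genes were higher in MaSC-enriched cells, blue in luminal cells and grey did not pass. Smooth muscle contractile genes (median 4.04) and basement membrane genes (2.94) lie highest, tight junction genes (-2.53), luminal progenitor genes (-2.41) and milk proteins (-2.33) lowest, and the dotted line is the median of all tested genes (-0.10).

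Keratins split by layer, with an exception. Of 6 tested basal keratins, 3 were higher in MaSC-enriched cells and 0 in luminal cells (median 1.98). Besides Krt5 these were Krt17, found in myoepithelium, with 13.87, 13.85, 14.23 and 14.30 against 9.0, 9.27, 8.96 and 10.05 (4.74, SE 0.41, adjusted p = 2.7e-07, near the top of the scale), and Krt15 (2.99, SE 0.41, adjusted p = 2.87e-05). Krt16, a keratin of stressed epithelium, varied more within the groups than between them, with 5.32, 7.10, 8.78 and 9.39 and 6.90, 7.11, 4.87 and 7.84 (0.97, SE 1.18, adjusted p = 0.555). Of 6 luminal keratins, Krt8, Krt18, Krt19 and Krt7 were higher in luminal cells. Krt19 read 9.85, 11.11, 10.19 and 9.94 against 13.55, 13.55, 13.11 and 13.17 (-3.07, SE 0.34, adjusted p = 3.63e-06), with MaSC-enriched replicate 2 the highest of its group, as it was for Krt18. Krt8, the partner of Krt18, differed by -0.80, SE 0.18, adjusted p = 0.00285 near the top of the scale. Krt23, listed here with the luminal keratins, went the other way, at 13.62, 13.45, 13.55 and 13.37 in MaSC-enriched and 9.22, 8.82, 8.91 and 9.11 in luminal cells (4.48, SE 0.21, adjusted p = 7.05e-10, 22.4-fold), and Krt20 was barely above background (0.80), its call lost under 9 settings.

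Transcription factors of the basal layer were mostly on the MaSC-enriched side. Of 15 tested, 11 were higher in MaSC-enriched cells, 0 in luminal cells, and the median was 1.63. Trp63, which encodes p63, the factor that stratified and basal epithelia depend on, stood at 13.82, 13.30, 13.42 and 13.39 against 7.61, 7.32, 8.65 and 6.59 (5.94, SE 0.45, adjusted p = 6.75e-08, 61.4-fold). Snai2, the Slug repressor of epithelial genes, read 12.50, 12.40, 11.99 and 12.31 against 5.85, 5.93, 7.24 and 6.31 (5.97, SE 0.29, adjusted p = 8.87e-10). Id4, a helix-loop-helix inhibitor active in mammary basal cells, read 13.11, 12.71, 12.67 and 12.70 against 6.72, 6.84, 8.44 and 6.76 (5.61, SE 0.51, adjusted p = 4.09e-07). In all 3 genes the luminal arrays were low with replicate 3 the highest of them. Mef2c, a myogenic MADS-box factor (4.66, SE 0.50, adjusted p = 2.84e-06), and Bcl11b, a zinc finger repressor (3.13, SE 0.27, adjusted p = 2.39e-07), followed.

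The contractile apparatus gave the largest list difference of all. Of 19 tested smooth muscle genes 18 were higher in MaSC-enriched cells, the exception being the bright probe of Acta2, and the median was 4.04, or a log2 of 4.06 within chip 3 and 4.09 within chip 4. Kcnmb1, the beta subunit of the calcium-activated potassium channel of smooth muscle, read 10.68, 10.85, 10.98 and 10.98 against 5.22, 4.82, 4.85 and 4.85, not detected in luminal cells, at least 33.3-fold higher (5.94, SE 0.20, adjusted p = 4.33e-11). Tagln, the actin-binding SM22, read 11.89, 11.97, 12.21 and 12.20 against 6.43, 6.43, 6.53 and 6.14 (5.68, SE 0.25, adjusted p = 3.56e-10). Cald1, caldesmon (5.38, SE 0.30, adjusted p = 3.06e-09), Actg2, enteric smooth muscle actin (5.36, SE 0.50, adjusted p = 5.94e-07, near the top of the scale), and Synm, an intermediate filament protein (5.31, SE 0.36, adjusted p = 2.1e-08), came next. Contraction signalling was less uniform, with 5 of 9 tested genes higher in MaSC-enriched cells: Rgs2, a brake on Gq signalling (3.18, SE 0.43, adjusted p = 2.48e-05), Prkg1, the cGMP-dependent kinase (2.93, SE 0.24, adjusted p = 1.6e-07), Arhgef25, a RhoA activator (2.79, SE 0.26, adjusted p = 6.86e-07), Ednrb, an endothelin receptor (2.68, SE 0.42, adjusted p = 0.000103), and, named only to complete the count, Gnaq. Prkg1 and Arhgef25 each had a dimmer probe that did not pass (-0.31 and -0.34). Orai1, the store-operated calcium channel, was higher in luminal cells (8.70, 8.98, 8.97 and 9.23 against 11.03, 11.25, 10.86 and 11.51, -2.19, SE 0.28, adjusted p = 1.85e-05). Pericytes share many contractile genes, and the pericyte marker sum was also higher on every MaSC-enriched array (1337 to 4822) than on any luminal array (409 to 616). Their part in these differences was not tested.

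Smooth muscle genes are switched on by SRF through CArG boxes, so promoters of the list were searched for the CArG box motif on both strands. RefSeq promoters (GRCm38.p6, 300 bases around the start) were matched for 16 of the 19 genes, as 18 promoters, and 1 held a match, beside 1.63% of all 32851 promoters. It is that of Myl9, the regulatory light chain of myosin, whose probe read 14.27, 14.47, 14.30 and 14.50 against 9.08, 9.16, 9.55 and 9.49 (5.07, SE 0.39, adjusted p = 7.37e-08, near the top of the scale). Myl9 was singled out for this match after its values were seen, and its window, chr2:156775214-156775513 on the plus strand, is shown with the match, which begins at position -161 from the start, in capitals.
Myl9: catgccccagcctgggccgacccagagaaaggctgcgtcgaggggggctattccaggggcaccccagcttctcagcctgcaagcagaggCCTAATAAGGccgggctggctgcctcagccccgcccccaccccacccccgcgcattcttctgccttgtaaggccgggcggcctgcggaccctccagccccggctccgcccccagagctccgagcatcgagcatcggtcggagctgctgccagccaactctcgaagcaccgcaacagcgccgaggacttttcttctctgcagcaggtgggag
For the other promoters the search says only that these letters are absent from the window.

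Attachment to the matrix followed the same side. Of 17 integrin and hemidesmosome genes 9 were higher in MaSC-enriched cells and 1 in luminal cells (median 1.34). Col17a1, a transmembrane collagen of hemidesmosomes, read 13.71, 13.56, 13.71 and 13.67 against 8.18, 8.28, 8.09 and 8.17 (5.48, SE 0.25, adjusted p = 5.86e-10). Itga9 (4.65, SE 0.28, adjusted p = 7.41e-09; 1 of 4 luminal arrays detected), Itga1, a collagen receptor (at least 10.1-fold, 4.29, SE 0.32, adjusted p = 6.58e-08), Itga5, the fibronectin receptor (3.45, SE 0.57, adjusted p = 0.000177), and Itga3, a laminin receptor (2.83, SE 0.21, adjusted p = 6.56e-08), were the next. Itgb4, the hemidesmosome integrin that pairs with Itga6, was the one called in luminal cells, 10.52, 10.09, 10.48 and 10.36 against 11.50, 11.42, 11.61 and 11.73 (-1.20, SE 0.18, adjusted p = 9.11e-05), in contrast to virgins (0.25; interaction -1.45, SE 0.28, adjusted p = 0.0048). It was named after its values were seen.

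Basement membrane genes were higher in MaSC-enriched cells at 13 of 16 tested, with 0 higher in luminal cells and a median of 2.94. Col18a1, the source of endostatin, read 13.39, 13.26, 13.61 and 13.36 against 8.03, 8.65, 9.28 and 9.59 (4.52, SE 0.31, adjusted p = 2.33e-08). Lama1, the laminin alpha chain that signals polarity to luminal cells, read 13.21, 13.33, 13.50 and 13.46 against 9.14, 9.06, 9.23 and 9.34 (4.18, SE 0.22, adjusted p = 1.62e-09). The type IV collagen chains Col4a2 (4.15, SE 0.31, adjusted p = 6.35e-08), Col4a6 (3.80, SE 0.26, adjusted p = 2.5e-08) and Col4a5 (3.42, SE 0.21, adjusted p = 6.64e-09) were with them, Col4a2 lying near the top of the scale. Among 17 genes of matrix remodelling 11 were higher in MaSC-enriched cells and 1 in luminal cells (median 1.89). Timp3, a metalloprotease inhibitor (3.98, SE 0.26, adjusted p = 1.65e-08), had a probe that did not share its direction (-0.44). Mmp2, gelatinase A (3.63, SE 0.54, adjusted p = 7.21e-05), Sparc (3.32, SE 0.28, adjusted p = 1.98e-07), Ccn2, a YAP and TGF-beta target (3.30, SE 0.34, adjusted p = 1.72e-06), and Plau, urokinase (3.12, SE 0.44, adjusted p = 4e-05), passed, Sparc and Ccn2 lying near the top of the scale. Tnc, tenascin C, was the luminal one (7.15, 8.35, 7.80 and 7.04 against 10.40, 10.70, 10.60 and 9.81, -2.79, SE 0.65, adjusted p = 0.00302), named after its values were seen. Fibroblasts make many of these proteins, and the fibroblast marker sum was also higher on every MaSC-enriched array than on any luminal array. Luminal replicate 3 had the highest luminal level of Timp3, Mmp2, Sparc and of that sum. The part of fibroblasts in these differences was not tested.

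Junctions divided the layers by type. All 11 called genes of 14 tested for tight junctions and apical polarity were higher in luminal cells, median -2.53. Muc1, the apical mucin, read 7.54, 8.24, 7.26 and 7.24 against 11.15, 10.81, 10.85 and 10.98 (-3.38, SE 0.29, adjusted p = 2.48e-07). Tjp3, a tight junction scaffold (-3.33, SE 0.31, adjusted p = 5.86e-07), Marveld3, a tetraspanning junction protein (-3.29, SE 0.25, adjusted p = 8.3e-08), Cldn3, a claudin (10.19, 11.20, 10.17 and 9.86 against 13.56, 13.43, 13.22 and 13.43, -3.06, SE 0.27, adjusted p = 3.37e-07), and Ocln, occludin, at least 5.36-fold (-2.86, SE 0.27, adjusted p = 6.26e-07), completed the leaders. MaSC-enriched replicate 2 was the highest of its group in Muc1, Tjp3, Marveld3, Cldn3 and Ocln. Among 12 cadherin, desmosome and gap junction genes 5 went each way (median -0.17, and above 0 under cyclic loess and with chip as a block). Cdh3, P-cadherin of basal cells, read 11.89, 11.72, 11.80 and 11.84 against 6.51, 6.56, 6.48 and 6.96 (5.18, SE 0.21, adjusted p = 2.16e-10). Pkp1, a desmosomal plaque protein (3.42, SE 0.39, adjusted p = 4.34e-06), and Gja1, connexin 43, the gap junction protein of myoepithelium (3.41, SE 0.20, adjusted p = 5.69e-09, near the top of the scale), were on the same side. Luminal cells had more of Pkp2 (-3.20, SE 0.23, adjusted p = 4.22e-08) and of Gjb6, connexin 30 (-2.89, SE 0.68, adjusted p = 0.00315).

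Luminal identity factors were less one-sided than basal ones, with 5 of 15 higher in luminal and 3 in MaSC-enriched cells (median -0.16, and above 0 under cyclic loess). Foxa1, the pioneer factor of hormone-receptor cells, was not detected in MaSC-enriched cells (5.18, 4.94, 5.19 and 5.61 against 9.34, 9.35, 8.07 and 8.27) and was at least 8.76-fold higher in luminal cells (-3.53, SE 0.38, adjusted p = 2.55e-06). Elf5, the alveolar regulator, read 11.75, 11.76, 10.50 and 10.71 against 13.77, 13.68, 13.82 and 13.02 (-2.39, SE 0.41, adjusted p = 0.000253), and its 2 other probes gave -3.13 and -3.05. Ovol1, a repressor of mesenchymal genes (-2.89, SE 0.61, adjusted p = 0.00139), and Xbp1, the secretory-cell factor (-1.41, SE 0.23, adjusted p = 0.000167, near the top of the scale), also passed. Gata3, the master factor of luminal fate, missed the threshold (-0.65, SE 0.27, adjusted p = 0.0711), although all luminal arrays were above all MaSC-enriched arrays. It passed in the fit blocked on chip (-0.91, adjusted p = 0.00844), with array weights and when only the 8 pregnant arrays were fitted. Runx1 was higher in MaSC-enriched cells (1.90, SE 0.32, adjusted p = 0.000221), although its dimmer probe did not pass (0.57, adjusted p = 0.311).

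Luminal progenitor genes were higher in luminal cells at 9 of 14 tested and at 0 in MaSC-enriched cells (median -2.41). Kit, the stem cell factor receptor, read 9.59, 10.50, 9.33 and 8.88 against 12.61, 12.26, 12.57 and 11.58 (-2.68, SE 0.36, adjusted p = 2.46e-05). Ltf, lactoferrin, an iron-binding defence protein of milk, read 10.38, 11.14, 9.90 and 10.18 against 13.73, 13.67, 13.55 and 13.63 (-3.25, SE 0.35, adjusted p = 2.71e-06). Slpi, an antileukoprotease (-3.63, SE 0.34, adjusted p = 5.5e-07), Rspo1, an R-spondin that amplifies Wnt signals (-2.80, SE 0.43, adjusted p = 9.27e-05), and Cd55, a complement regulator (-2.70, SE 0.21, adjusted p = 8.43e-08), were alike in direction. Luminal replicate 3 was the lowest luminal array in Slpi.

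Hormone-sensing genes were higher in luminal cells at 5 of 9 tested and higher in MaSC-enriched cells at 1 (median -1.31). Tnfsf11, RANK ligand, which progesterone induces and which acts on neighbouring cells, read 6.15, 5.81, 5.65 and 5.67 against 10.46, 10.42, 9.71 and 9.05 (-4.09, SE 0.32, adjusted p = 1.06e-07, 17-fold). Cited1, a coactivator of the estrogen receptor, was not detected in MaSC-enriched cells and was at least 7.19-fold higher in luminal cells (-3.53, SE 0.29, adjusted p = 1.52e-07). Wnt4, which mediates progesterone action, read 6.78, 6.81, 7.02 and 7.22 against 9.76, 10.12, 8.97 and 9.74 (-2.69, SE 0.27, adjusted p = 1.13e-06). Esr1, the estrogen receptor, differed by -1.31, SE 0.19, adjusted p = 4.37e-05, with a second probe near background at 0.02. Pgr, the progesterone receptor, was detected on 1 of 4 MaSC-enriched and 0 of 4 luminal arrays, and its level did not differ beyond the spread (0.17, SE 0.34, adjusted p = 0.734). The difference moved toward MaSC-enriched cells relative to virgins at Esr1 (1.89, SE 0.28, adjusted p = 0.000765), Cited1 (1.90, SE 0.44, adjusted p = 0.0158) and Pgr (3.05, SE 0.53, adjusted p = 0.00212), and away from them at Tnfsf11 (-3.59, SE 0.50, adjusted p = 0.000411).

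Milk proteins were called higher in luminal cells at 10 of 17 tested and at 0 in MaSC-enriched cells (median -2.33). Every one of the 7 that did not pass lay near the top of the scale, Csn2 among them (14.13, 14.47, 14.59 and 14.70 against 14.34, 14.35, 14.11 and 14.44, 0.16, SE 0.29, adjusted p = 0.696). All 9 tested milk genes below that range passed. The part of the ceiling in the calls that failed was not tested. Lalba, alpha-lactalbumin, the lactose synthase cofactor, read 7.64, 7.30, 6.22 and 5.93 against 10.20, 9.92, 10.62 and 9.98 (-3.40, SE 0.44, adjusted p = 1.86e-05, 10.6-fold). Folr1, a folate receptor (-3.40, SE 0.46, adjusted p = 2.58e-05), Btn1a1, the butyrophilin of the milk fat globule (-2.84, SE 0.39, adjusted p = 3.54e-05), and Pigr, the receptor that carries IgA into milk (9.15, 9.19, 7.59 and 7.80 against 11.49, 11.40, 11.79 and 11.04, -3.00, SE 0.39, adjusted p = 2.03e-05), followed.

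Csn1s2a, a calcium-sensitive casein, showed how uneven the MaSC-enriched arrays were for milk transcripts, at 10.13, 8.83, 6.60 and 7.24 against a steady 11.33, 11.25, 11.36 and 11.06 (-3.05, SE 0.85, adjusted p = 0.00988). Replicates 1 and 2 were higher than replicates 3 and 4 of the MaSC-enriched arrays for Csn1s2a, Lalba, Wap, Elf5 and Btn1a1. Csn2, near the top of the scale, had the opposite order, and the order was not counted over the milk list. Wap, the whey acidic protein, read 13.71, 13.81, 13.04 and 12.94 against 14.59, 14.86, 14.59 and 14.56 (-1.28, SE 0.48, adjusted p = 0.0468, near the top of the scale). Its call was lost under 11 settings, chip as a block among them (-0.75, adjusted p = 0.2). The source of milk transcripts on the MaSC-enriched arrays was not tested.

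STAT5 drives milk genes through the palindrome TTCNNNGAA, and promoters of the list were searched for it on both strands. RefSeq promoters were matched for 10 of the 17 genes, and 5 held a match (Csn1s1, Csn1s2a, Csn2, Glycam1 and Pigr), beside 8.30% of all 32851 promoters. Shown are a gene near the ceiling with a match upstream of its start (Csn2, chr5:87699376-87699675, minus strand, match beginning at position -93 from the start) and one below the ceiling and higher in luminal cells (Pigr, chr1:130826434-130826733, plus strand, match beginning at position 39), with the match in capitals.
Csn2: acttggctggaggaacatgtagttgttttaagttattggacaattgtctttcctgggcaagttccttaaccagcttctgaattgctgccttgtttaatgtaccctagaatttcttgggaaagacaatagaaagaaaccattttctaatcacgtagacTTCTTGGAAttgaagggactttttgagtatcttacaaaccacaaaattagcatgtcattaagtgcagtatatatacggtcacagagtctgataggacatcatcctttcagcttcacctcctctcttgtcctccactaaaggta
Pigr: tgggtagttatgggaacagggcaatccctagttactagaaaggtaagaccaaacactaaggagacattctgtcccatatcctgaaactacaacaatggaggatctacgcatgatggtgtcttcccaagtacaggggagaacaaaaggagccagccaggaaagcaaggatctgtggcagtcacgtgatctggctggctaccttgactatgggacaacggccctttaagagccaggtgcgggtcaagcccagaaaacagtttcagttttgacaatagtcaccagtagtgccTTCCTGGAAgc
A match is a description of these letters and not evidence that the factor binds there.

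Milk fat enzymes were higher in luminal cells at 15 of 20 tested, with 1 higher in MaSC-enriched cells and a median of -1.23. Thrsp, the lipogenic Spot 14 protein, read 9.37, 10.17, 8.85 and 9.25 against 12.74, 12.62, 12.68 and 12.23 (-3.15, SE 0.46, adjusted p = 6.27e-05). Lpin1, a phosphatidate phosphatase of triglyceride synthesis, read 8.87, 9.56, 8.62 and 8.68 against 11.99, 12.10, 11.72 and 11.89 (-3.00, SE 0.31, adjusted p = 1.58e-06). Fabp3, a fatty acid carrier (-2.39, SE 0.52, adjusted p = 0.00184, near the top of the scale), Lpl, which frees fatty acids from plasma lipoproteins (-1.84, SE 0.44, adjusted p = 0.00388), and Scd1, the stearoyl desaturase (-1.80, SE 0.35, adjusted p = 0.00076), passed as well. Dgat2, which makes triglyceride, was the single gene on the other side (9.16, 9.32, 9.88 and 9.78 against 8.16, 8.15, 7.56 and 8.01, 1.56, SE 0.28, adjusted p = 0.000365) and had been lower in MaSC-enriched cells in virgins (-1.81, interaction 3.38, SE 0.43, adjusted p = 0.000196). It was named after its values were seen. Sterol synthesis differed less, with 6 of 13 genes higher in luminal cells and a median of -0.51. Mvd, mevalonate decarboxylase (-2.23, SE 0.43, adjusted p = 0.000669), Lss, lanosterol synthase (-1.25, SE 0.22, adjusted p = 0.000299), and Dhcr7, the last step to cholesterol (-1.09, SE 0.23, adjusted p = 0.00164), led it. The dimmer probe of Lss did not pass (-0.46, adjusted p = 0.143).

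Solute and water transporters were higher in luminal cells at 7 of 13 tested and in MaSC-enriched cells at 2 (median -1.22). Atp2c2, a Golgi calcium and manganese pump, read 5.59, 5.72, 5.49 and 5.02 against 8.39, 8.32, 8.55 and 8.76 and was detected on 2 of 4 MaSC-enriched arrays (-3.05, SE 0.23, adjusted p = 7.33e-08). Aqp5, a water channel, read 6.01, 5.89, 5.82 and 6.03 against 8.68, 8.99, 8.85 and 8.97 (-2.94, SE 0.26, adjusted p = 3.38e-07). Atp1b1, the sodium pump beta subunit (-2.82, SE 0.34, adjusted p = 8.67e-06), and Slc34a2, a phosphate carrier (-2.65, SE 0.30, adjusted p = 3.83e-06), shared the direction. Aqp3, another water channel, did not pass in the fit of all 14 arrays (-3.06, SE 1.24, adjusted p = 0.0635). It passed with array weights, when only the 8 pregnant arrays were fitted, and in the fit blocked on chip (adjusted p = 0.0305). In the secretory pathway 5 of 23 genes were higher in luminal cells, 1 in MaSC-enriched cells and 17 did not pass (median -0.09). Under cyclic loess the counts were 3 and 3 and the median was 0.10. Of the 5, Spcs3 of the signal peptidase differed by -1.10, SE 0.20, adjusted p = 0.000367, and Sdf2l1, a folding factor (-1.13, SE 0.39, adjusted p = 0.0299), lost its call under 9 settings.

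Ligands of the EGF family were divided between the layers. Nrg1, neuregulin, a ligand for ERBB3 and ERBB4, read 10.83, 11.07, 11.52 and 11.55 in MaSC-enriched cells and 5.26, 4.94, 5.62 and 4.69 in luminal cells, where it was not detected. It was at least 42.9-fold higher in MaSC-enriched cells (6.11, SE 0.59, adjusted p = 8.95e-07), and its other probes gave 0.94 and 4.32 and also passed. Erbb3 and Erbb4 themselves were detected on none of the 8 arrays and were not tested. Egfr read 11.90, 12.02, 11.73 and 11.71 against 9.56, 9.73, 9.76 and 10.09 (2.06, SE 0.19, adjusted p = 5.1e-07). Btc, betacellulin, an EGFR ligand, was detected only in luminal cells (5.15, 5.19, 4.91 and 4.96 against 7.39, 7.33, 7.43 and 7.10), at least 3.22-fold higher there (-2.26, SE 0.26, adjusted p = 4.57e-06), and Erbb2, the shared coreceptor, differed by -1.45, SE 0.24, adjusted p = 0.000204. Hbegf did not pass (-1.29, SE 0.74, adjusted p = 0.188) except with array weights, with MaSC-enriched replicate 1 and luminal replicate 3 the lowest of their groups.

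Wnt ligands were divided. Wnt6 (10.49, 10.43, 10.78 and 10.97 against 5.31, 5.40, 5.09 and 5.47, at least 28.8-fold, 5.35, SE 0.24, adjusted p = 4.42e-10), Wnt10a (at least 8.85-fold, 3.76, SE 0.53, adjusted p = 3.82e-05) and Wnt5a (9.41, 9.30, 9.09 and 8.93 against 6.59, 6.64, 7.04 and 6.53, 2.48, SE 0.37, adjusted p = 6.61e-05) were higher in MaSC-enriched cells. Wnt4, described above, and Wnt5b (8.26, 8.78, 8.10 and 8.48 against 10.38, 10.42, 10.74 and 10.20, -2.03, SE 0.24, adjusted p = 6.72e-06) were higher in luminal cells. The 7 tested ligands, of 14 listed, thus had 3 on one side and 2 on the other. Of 25 tested receptors and regulators, 13 were higher in MaSC-enriched and 2 in luminal cells (median 0.66). The secreted inhibitor Wif1 read 12.56, 12.59, 12.68 and 12.46 against 7.42, 7.69, 8.07 and 6.94 (5.04, SE 0.33, adjusted p = 1.38e-08). Nkd1, an intracellular brake that Wnt signalling induces, was detected only in MaSC-enriched cells (at least 16.6-fold, 4.89, SE 0.25, adjusted p = 1.31e-09), and Fzd7, a receptor, read 13.24, 12.64, 12.43 and 12.40 against 9.07, 8.80, 9.76 and 8.29 (3.69, SE 0.46, adjusted p = 1.23e-05). In this list 9 genes had a smaller or more negative difference in pregnancy than in virgins by the interaction test and 0 a more positive one, beside 3.39% and 5.37% of all genes.

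Lgr5, an R-spondin receptor that marks stem cells in several epithelia, was detected on 1 of 4 MaSC-enriched and 0 of 4 luminal arrays at day 12.5 (6.19, 5.24, 5.53 and 5.71 against 4.92, 4.72, 5.01 and 4.93). The difference was 0.77, SE 0.25, adjusted p = 0.0219, against 4.93 in virgins (interaction -4.16, SE 0.38, adjusted p = 1.17e-05), and its call in pregnancy was lost under 7 settings.

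Notch ligands were higher in MaSC-enriched cells. Dll1, a ligand of basal cells, read 12.47, 12.47, 12.69 and 12.55 against 7.08, 6.59, 7.30 and 6.42 (5.70, SE 0.32, adjusted p = 3.35e-09, 51.8-fold). Jag2 was at least 14.7-fold higher (4.33, SE 0.51, adjusted p = 7.2e-06) and Jag1 differed by 2.74, SE 0.35, adjusted p = 1.55e-05, with luminal replicate 3 above the other luminal arrays. Genes of the Hes and Hey families split. Hey1 was higher in MaSC-enriched cells (9.35, 9.14, 8.79 and 8.74 against 6.88, 6.73, 7.26 and 6.85, 2.07, SE 0.45, adjusted p = 0.0019). Hes6 was higher in luminal cells (7.76, 7.98, 7.99 and 8.0 against 9.67, 9.42, 9.35 and 10.15, -1.72, SE 0.24, adjusted p = 4.62e-05). Over the pathway, 5 of 15 tested genes were higher in MaSC-enriched and 3 in luminal cells, the latter with Notch1 (-1.10) and Hes1 (-1.18), which were named after their values were seen.

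**Figure D4:**
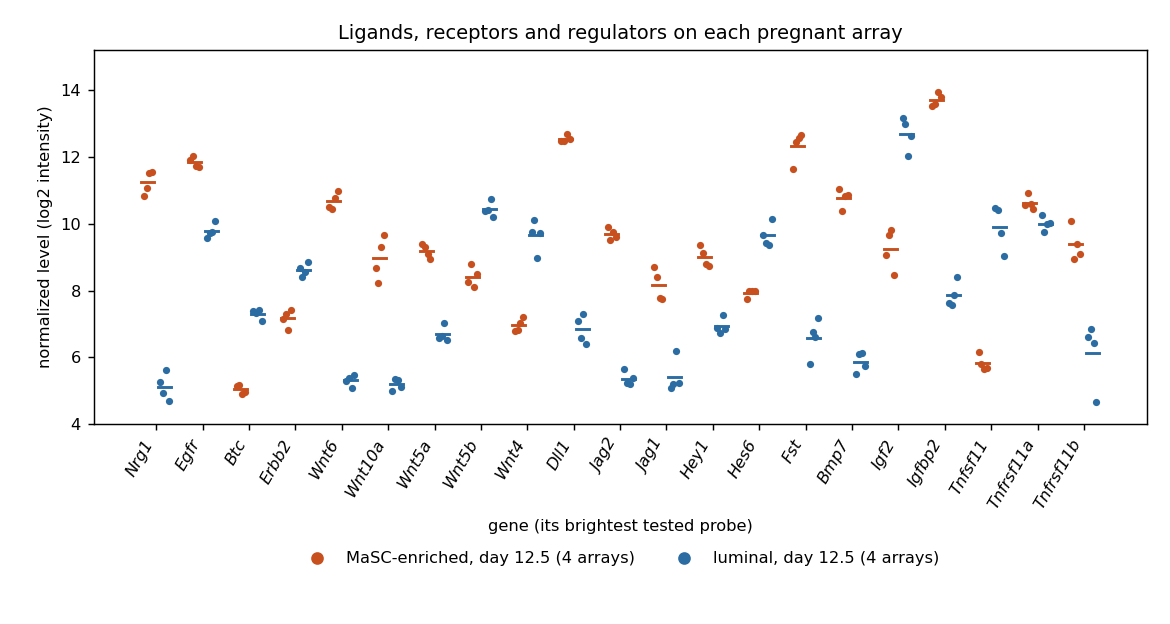
Level (log2 normalized intensity) of 21 ligands, receptors and regulators on each of the 4 MaSC-enriched (orange) and 4 luminal (blue) arrays from pregnant mice, with a bar at each group mean; heights are not comparable between genes. Nrg1, Wnt6, Dll1, Jag2, Fst and Bmp7 are high in MaSC-enriched cells, Btc, Wnt5b, Wnt4, Igf2 and Tnfsf11 in luminal cells, and Tnfrsf11a differs by only 0.63.

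Growth factor binding proteins of the IGF system were among the largest differences. Igfbp2 read 13.53, 13.59, 13.93 and 13.80 against 7.64, 7.58, 7.86 and 8.42 (5.84, SE 0.44, adjusted p = 6.63e-08, 57.2-fold). Igfbp3 (5.19, SE 0.28, adjusted p = 2.55e-09) and Igfbp4 (3.64, SE 0.37, adjusted p = 1.5e-06) were on the same side, as was the receptor Fgfr2 (13.38, 12.87, 12.92 and 13 against 9.82, 9.87, 9.34 and 9.32, 3.45, SE 0.26, adjusted p = 7.71e-08), for which 2 of 4 probes near background did not pass. Igf2, the growth factor itself, was higher in luminal cells, at 9.06, 9.67, 9.82 and 8.46 against 13.15, 12.98, 12.04 and 12.62 (-3.44, SE 0.48, adjusted p = 3.95e-05). The list had 10 of 17 genes higher in MaSC-enriched cells and Igf2 alone in luminal cells, median 1.51.

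In the TGF-beta family 13 of 24 genes were higher in MaSC-enriched and 2 in luminal cells (median 0.84). Fst, follistatin, which binds activin, read 11.65, 12.44, 12.58 and 12.64 against 5.8, 6.75, 6.62 and 7.19 (5.73, SE 0.43, adjusted p = 6.41e-08, 53.2-fold). Bmp7, a ligand (4.90, SE 0.24, adjusted p = 1.04e-09), Tgfbr3, the betaglycan coreceptor (3.33, SE 0.26, adjusted p = 8.15e-08), Ltbp4, which holds latent TGF-beta in the matrix (2.47, SE 0.32, adjusted p = 1.84e-05), and Bmp1, a procollagen protease (2.15, SE 0.19, adjusted p = 3.12e-07), also passed. The 2 luminal genes were Tgfb2 (-1.55) and Tgfb1 (-0.80), ligands named after their values were seen.

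Axon guidance genes, which also act in duct branching and layer adhesion, were higher in MaSC-enriched cells at 15 of 22 tested and in luminal cells at 0 (median 1.49). Sema3c, a secreted semaphorin, read 11.17, 10.90, 10.82 and 10.42 against 6.35, 6.43, 7.36 and 5.37 (4.45, SE 0.53, adjusted p = 7.14e-06). Slit3 (3.69, SE 0.49, adjusted p = 2.38e-05) and Slit2 (at least 4.44-fold, 3.00, SE 0.21, adjusted p = 3.92e-08) are secreted ligands. The 3 dimmer probes of Slit2 did not pass (0.24 to 0.50). Their receptor Robo1 was higher on the same side (10.13, 10.26, 10.39 and 10.18 against 6.98, 6.72, 6.29 and 6.19, 3.69, SE 0.20, adjusted p = 1.87e-09), although the dimmer probe of Robo1 did not pass (-0.26). Plxna2, a semaphorin receptor, differed by 3.11, SE 0.41, adjusted p = 1.99e-05.

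RANK signalling put ligand and decoy in opposite layers. Tnfsf11 was luminal, as given above. Tnfrsf11b, osteoprotegerin, the decoy that captures RANK ligand, read 10.09, 8.95, 9.40 and 9.10 against 6.62, 6.85, 6.43 and 4.68 (3.24, SE 0.38, adjusted p = 7.47e-06). The receptor RANK itself, Tnfrsf11a, was measured in both populations, at 10.58, 10.92, 10.60 and 10.43 against 10.26, 9.75, 9.98 and 10.01, and the small difference (0.63, SE 0.24, adjusted p = 0.0489) lost its call under 9 settings. Downstream, Traf6 (-1.46, SE 0.23, adjusted p = 0.000105), Nfkbia (-1.0, SE 0.19, adjusted p = 0.000518) and Nfkb2 (-0.84, SE 0.31, adjusted p = 0.0451, lost under 10 settings) were higher in luminal cells. In all, 2 of 13 tested genes were higher in MaSC-enriched and 5 in luminal cells.

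Prolactin signalling was led by Tph1, the enzyme that begins serotonin synthesis and responds to prolactin, at 4.71, 4.79, 4.70 and 4.64 in MaSC-enriched cells, none of them detected, and 9.91, 10.06, 8.98 and 9.18 in luminal cells. It was at least 15-fold higher in luminal cells (-4.82, SE 0.51, adjusted p = 2.22e-06). Stat5a, the factor through which prolactin acts on milk genes, read 8.60, 9.07, 8.11 and 8.76 against 11.01, 11.14, 11.28 and 10.37 (-2.31, SE 0.34, adjusted p = 6.6e-05). Socs3, an inhibitor of cytokine signalling, was higher in MaSC-enriched cells, near the top of the scale (2.60, SE 0.38, adjusted p = 6.6e-05). Prlr, the prolactin receptor, had no probe named for it here. Among 13 genes, 4 were higher in luminal cells and 1 in MaSC-enriched cells.

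Most cell cycle genes, 18 of 21, did not pass, and the median was 0.10. The count higher in luminal cells was 1 here, 4 with chip as a block and 6 when only the 8 pregnant arrays were fitted, Mcm2 (-0.83) and Mcm5 (-0.94) of the replication helicase being among those gained. The exceptions were Ccnd2, cyclin D2, at 12.33, 11.93, 12.21 and 11.85 against 6.11, 6.4, 7.19 and 6.55 (5.51, SE 0.34, adjusted p = 7.4e-09, 45.7-fold), Kif11 (1.09, SE 0.40, adjusted p = 0.0392), lost under 8 settings, and Birc5, survivin, higher in luminal cells (-1.09, SE 0.29, adjusted p = 0.00707). Of 7 cell cycle inhibitors 4 were higher in MaSC-enriched cells, with Cdkn1c, p57, at 12.13, 12.44, 12.65 and 12.89 against 8.68, 8.81, 8.89 and 9.45 (3.57, SE 0.27, adjusted p = 7.66e-08), Cdkn2b, p15 (at least 1.42-fold, 1.23, SE 0.20, adjusted p = 0.000148), Cdkn1a, p21 (1.14, SE 0.33, adjusted p = 0.012), and Cdkn2d (1.13, SE 0.32, adjusted p = 0.00999). Rb1, named after its values were seen, was higher in luminal cells (-0.91). Among 8 housekeeping genes the largest difference was that of Rpl13a (-0.40, SE 0.19, adjusted p = 0.111), and among 10 dissociation stress genes 1 passed, Junb (0.85, SE 0.29, adjusted p = 0.0316), near the top of the scale, which lost its call under 6 settings.

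Defence genes were mostly luminal, at 9 of 17 against 3 in MaSC-enriched cells (median -1.14). Cxcl15, lungkine, was detected only in luminal cells (at least 7.08-fold, -3.46, SE 0.40, adjusted p = 6.09e-06), and S100a8, a calprotectin subunit, read 7.02, 8.02, 7.01 and 7.31 against 10.56, 10.98, 9.65 and 11.98 (-3.45, SE 0.85, adjusted p = 0.00435). Pglyrp1, a peptidoglycan receptor (-3.36, SE 0.52, adjusted p = 0.000101), and Saa1, serum amyloid A (-2.68, SE 0.42, adjusted p = 0.000106), which has near-identical family members that a probe may also bind, shared the direction. The dimmer probe of Pglyrp1 did not pass (-0.47, adjusted p = 0.414). The chemokine Cxcl14 was the large exception, at 13.83, 13.30, 13.76 and 13.54 against 7.46, 7.73, 8.59 and 8.58 (5.52, SE 0.33, adjusted p = 6.19e-09, 45.8-fold). In antigen presentation 4 of 11 genes were higher in luminal cells, 0 in MaSC-enriched cells (median -0.58): the immunoproteasome subunits Psmb9 (-1.72, SE 0.24, adjusted p = 4.71e-05) and Psmb8 (-1.68, SE 0.30, adjusted p = 0.000352), the peptide transporter Tap2 (-1.57, SE 0.24, adjusted p = 9.6e-05) and H2-K1 (-0.58, SE 0.18, adjusted p = 0.0171), whose call was lost under 5 settings.

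Many of the largest differences belonged to no list. Ntrk3, the neurotrophin-3 receptor, read 11.44, 11.83, 11.49 and 11.73 against 4.96, 4.99, 5.46 and 5.39, undetected in luminal cells, at least 55.9-fold higher (6.42, SE 0.21, adjusted p = 4.33e-11). Il17b, a cytokine, read 11.41, 11.59, 11.50 and 11.42 against 4.90, 4.77, 5.85 and 5.36 (6.26, SE 0.25, adjusted p = 2.16e-10; 1 luminal array detected). Asb2, a ubiquitin ligase adaptor that targets filamins (6.22, SE 0.37, adjusted p = 6.19e-09), and Pgm5, aciculin of muscle adhesion sites (6.19, SE 0.37, adjusted p = 6.02e-09), were each detected on 1 of 4 luminal arrays. Reln, reelin, a large secreted glycoprotein, read 14.65, 14.06, 14.11 and 14.17 against 8.20, 8.42, 8.80 and 8.31 (5.81, SE 0.47, adjusted p = 1.47e-07, near the top of the scale), with 2 dimmer probes at 1.15 and 2.60. Psd2 (at least 33.5-fold), Capn6, Mrvi1, Sobp, Septin3, Colgalt2, Lbhd2 and Sema5a made up the rest of the 20 largest, with differences of 5.73 to 5.98. All their MaSC-enriched arrays were above all luminal arrays, as the rule for naming required.

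On the luminal side Wfdc12, a small protease inhibitor with a whey acidic protein domain, led with 8.03, 8.58, 8.26 and 8.43 against 13.99, 13.89, 12.24 and 13.96 (-5.20, SE 0.79, adjusted p = 8.43e-05, 36.6-fold), luminal replicate 3 standing below the other 3. Esrrb, an orphan nuclear receptor, was detected on no MaSC-enriched array (5.18, 5.40, 4.96 and 4.83 against 10.45, 10.05, 9.03 and 10.31), at least 20.2-fold higher in luminal cells (-4.87, SE 0.38, adjusted p = 9.75e-08). Scnn1b, the beta subunit of the epithelial sodium channel, read 5.90, 6.49, 5.57 and 6.26 against 10.40, 10.38, 9.56 and 10.44 (-4.14, SE 0.36, adjusted p = 3.05e-07), and Fxyd2, a sodium pump regulator, differed by -4.05, SE 0.38, adjusted p = 5.87e-07. Gldc, the glycine cleavage decarboxylase, read 8.45, 8.32, 7.76 and 7.78 against 11.84, 12.20, 12.01 and 11.99 (-3.93, SE 0.28, adjusted p = 4.27e-08). Apof (-4.47), Apol7a (at least 15.1-fold), Lao1, an L-amino acid oxidase found in milk (-3.95), Sftpd, surfactant protein D of innate defence (-3.67), and Ano9, Gdpd1, Slc35f3, Sgsh, Opn1mw, Crybg2, Bspry and Tlcd4 (-3.54 to -3.69) followed. The second probe of Sgsh did not pass (0.20, adjusted p = 0.623).

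Which of these differences belonged to pregnancy was asked with the virgin arrays. The virgin contrast called 3649 genes, 32.1%. It rests on 3 arrays of each population, which correlated at 0.909 to 0.942 (MaSC-enriched) and 0.949 to 0.976 (luminal). The pregnant MaSC-enriched arrays correlated at 0.978 to 0.988. A gene not called in virgins is therefore not shown to be without a difference there. Of the 2290 genes higher in MaSC-enriched cells in pregnancy, 1359 (59.3%) were also higher there in virgins, which is 77.2% of the virgin MaSC-enriched genes. Of the 2615 luminal genes, 1210 (46.3%) were also luminal in virgins, or 64.1% of the virgin luminal genes. The difference between the contrasts was called at 994 genes, 8.76%, with 609 more positive in pregnancy (5.37%) and 385 more negative (3.39%). Among them, 86 were called in opposite directions in the 2 states.

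Some genes were higher in MaSC-enriched cells at day 12.5 and in luminal cells of virgins. Pcdha7, an alpha protocadherin whose family shares its 3′ exons, read 8.15, 7.92, 8.13 and 8.23 against 5.30, 5.48, 5.21 and 4.99 (at least 4.89-fold), while in virgins the difference was -3.83 (interaction 6.70, SE 0.51, adjusted p = 2.89e-06). Enho, which encodes adropin, differed by 4.50 in pregnancy and -1.85 in virgins (interaction 6.35, SE 0.74, adjusted p = 0.000101). Kif5c, a kinesin, did so by 3.43 and -2.48 (interaction 5.92, SE 0.45, adjusted p = 2.89e-06). Fgfr2 (-1.37 in virgins, interaction 4.82, SE 0.40, adjusted p = 5.73e-06), Wnt5a (-2.48, interaction 4.96, SE 0.56, adjusted p = 6.85e-05) and Hey1 (-2.44, interaction 4.51, SE 0.69, adjusted p = 0.000923), described above, had also been luminal in virgins. Ido1 and Piezo2 were of another kind, since the virgin luminal excess (-5.78 and -5.18) was gone at day 12.5 (-0.10, with 0 of 8 arrays detected, and 0.32).

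The reverse change was found at Igf2, higher in MaSC-enriched cells of virgins (2.49) and in luminal cells of pregnant mice (-3.44, interaction -5.94, SE 0.74, adjusted p = 0.00017), and at Slpi (1.93 and -3.63, interaction -5.56, SE 0.51, adjusted p = 1.24e-05). Serpinb11, a serpin, kept its direction with a smaller difference (6.86 in virgins, 1.98 at day 12.5, interaction -4.88, SE 0.76, adjusted p = 0.00101). Them5, a thioesterase, differed by 5.05 in virgins and 0.86 at day 12.5 (interaction -4.19, SE 0.47, adjusted p = 6.37e-05), and its call in pregnancy was lost under 13 settings, with a difference of 0.48 in the deposited matrix. For luminal genes that were nearer to the MaSC-enriched level in pregnancy, Krt7 (-4.55 in virgins, -1.60 in pregnancy, interaction 2.95, SE 0.48, adjusted p = 0.00139) and Aqp5 (-5.51 and -2.94, interaction 2.57, SE 0.40, adjusted p = 0.000931) passed, and Elf5 did so narrowly (-4.54 and -2.39, interaction 2.15, SE 0.62, adjusted p = 0.049, lost under 16 settings). Milk proteins had 5 of 17 positive interactions and 0 negative ones, beside 5.37% and 3.39% of all genes. Csn2 was among the positive ones (2.88, SE 0.44, adjusted p = 0.000892). In pregnancy 8 of the 17 genes, Csn2 included, lay near the top of the scale, where a difference may be compressed.

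**Figure D5:**
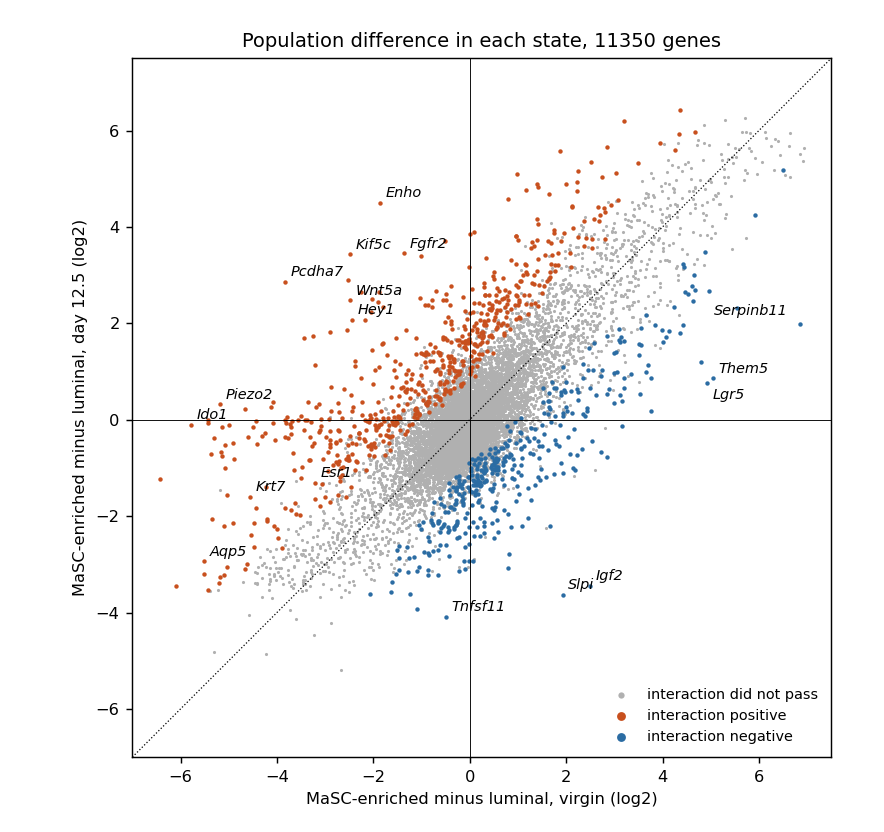
Difference between the populations (MaSC-enriched minus luminal, log2) at day 12.5 of pregnancy against the same difference in virgins, 1 point a gene over 11350 genes; orange and blue points passed the interaction test with a positive (609) or negative (385) value. Most points follow the dotted line of equal differences, while Enho, Kif5c, Fgfr2 and Pcdha7 lie in the upper left and Igf2 and Slpi in the lower right, where the direction is opposite in the 2 states.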

How the data were processed

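RNA of 14 sorted samples was read on Illumina BeadChips, which carry 45281 probes. Per the labels' protocols and the file headers, the authors deposited raw bead intensity with a detection p-value per probe for each array, and a table of log2 normalized values. BeadStudio and limma are named in the submitters' processing notes, without a version. Starting from the deposited intensity, normexp background correction with negative controls inferred from the detection p-value (935 implied controls), an offset of 16 and quantile normalization were applied. The deposited log2 values were matched with an offset of 50 (median absolute gap 0.00477, largest 0.0719).

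Probes detected (p below 0.05) on at least 3 of 14 arrays were tested (20906, 46.2%), with the probe of highest mean standing for a gene. All 14 arrays were fitted in limma 3.58.1 (R 4.3.3) with 4 groups and no covariate. The comparison of populations in pregnancy and its difference from that in virgins (interaction) were taken from that fit, with Benjamini-Hochberg adjustment over all probes or genes. The scripts were tested on simulated data. "At least" folds set the higher mean against a floor for genes detected on no array of the other group. A precision limit comes from the number of arrays.

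Named genes were the 20 largest differences in each direction whose groups did not overlap, leaving out uncharacterised gene models, the 5 largest interactions in each direction, up to 5 genes of each list and a fixed set of markers. The members and lists were chosen with earlier results of these data known. Same-numbered pregnant arrays did not deviate together (correlations -0.16, 0.00, -0.17 and 0.09), so the numbers were not taken as pairs. Alternatives were other scalings, offsets and filters, array weights, the mean of a gene's probes, the deposited values, chip and replicate blocks, a fit of only the 8 pregnant arrays, single chips and leaving out each array. No genome was used, and promoters came from RefSeq.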

Additional observations from a re-analysis of the deposited data

Results flagged for a closer look

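In 40 of 470 groups of 4 arrays (235 named genes in both populations), 1 array stood far from the other 3 by Dixon's test, which chance alone passes in about 1 in 20 groups. Levels are log2 normalized intensities, with the range of the other 3 arrays in brackets.

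In MaSC-enriched replicate 1 these were Capn6 at 11.76 (12.12 to 12.18), Id4 at 13.11 (12.67 to 12.71), Prkg1 at 12.30 (11.83 to 11.88) and Itga6 at 12.27 (11.77 to 11.86). The same array also had Junb at 14.75 (14.17 to 14.24), Ywhaz at 14.24 (13.86 to 13.92), Pgr at 5.75 (5.27 to 5.31) and Sox10 at 13.12 (12.68 to 12.74). The same array also had Krt8 at 13.68 (13.99 to 14.04), Hbegf at 7.17 (8.99 to 9.27), Hes6 at 7.76 (7.98 to 8.0) and Cxcl15 at 5.36 (4.83 to 4.90).
In MaSC-enriched replicate 2 these were Septin3 at 11.58 (11.85 to 11.90), Cald1 at 11.80 (11.27 to 11.35), Ido1 at 4.84 (4.63 to 4.65) and Crybg2 at 5.86 (5.33 to 5.37). The same array also had Apof at 5.56 (4.99 to 5.04).
In MaSC-enriched replicate 3 these were Gapdh at 13.60 (13.50 to 13.52) and Ssr4 at 12.85 (13.19 to 13.22).
In MaSC-enriched replicate 4 these were Plau at 9.58 (10.20 to 10.32) and Apol7a at 4.90 (5.43 to 5.52).
In luminal replicate 1 these were Kcnmb1 at 5.22 (4.82 to 4.85) and Cldn5 at 7.45 (8.20 to 8.32).
In luminal replicate 2 these were Wap at 14.86 (14.56 to 14.59).
In luminal replicate 3 these were Id4 at 8.44 (6.72 to 6.84), Jag1 at 6.20 (5.07 to 5.23), Socs3 at 12.48 (11.67 to 11.67) and Aqp3 at 8.38 (9.34 to 9.48). The same array also had Folr1 at 10.23 (11.76 to 11.84), Bspry at 9.42 (9.98 to 10.07), Slpi at 9.38 (10.60 to 10.73) and Gdpd1 at 9.23 (10.08 to 10.21). The same array also had Scnn1b at 9.56 (10.38 to 10.44) and Wfdc12 at 12.24 (13.89 to 13.99).
In luminal replicate 4 these were Rgs2 at 5.23 (6.92 to 7.23), Rpl13a at 12.80 (12.47 to 12.49), Nfkb2 at 9.84 (9.45 to 9.51) and Nfkbia at 13.28 (13.67 to 13.74). The same array also had Traf6 at 9.62 (9.76 to 9.78) and Ocln at 7.26 (8.24 to 8.42).

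The difference between the populations itself differed between pregnant and virgin mice at 46 named genes by the interaction term of the limma fit (adjusted p below 0.05), given as the pregnant minus the virgin difference on the log2 scale. It was more positive in pregnancy at Pcdha7 (6.70), Enho (6.35), Kif5c (5.92), Ido1 (5.68), Piezo2 (5.49), Acta1 (5.43), Wnt5a (4.96) and Fgfr2 (4.82). Next came Hey1 (4.51), Pgr (3.05), Pgm5 (2.99), Krt7 (2.95), Csn2 (2.88), Dcn (2.68), Cxcl15 (2.64) and Aqp5 (2.57). Next came Robo1 (2.40), Socs3 (2.29), Elf5 (2.15), Ntrk3 (2.06), Cdkn2b (2.00), Cited1 (1.90), Esr1 (1.89) and Arhgef25 (1.84). Next came Lbhd2 (1.78), Btc (1.74), Col4a5 (1.71), Kcnmb1 (1.59), Col4a6 (1.54), Itga3 (1.5) and Psd2 (1.30). It was more negative at Igf2 (-5.94), Slpi (-5.56), Serpinb11 (-4.88), Them5 (-4.19), Lgr5 (-4.16), Tnfsf11 (-3.59), Gldc (-2.85) and Mvd (-2.38). Next came Opn1mw (-2.38), Krt14 (-2.25), Nkd2 (-2.0), Slit2 (-1.66), Sgsh (-1.56), Mcam (-1.51) and Cdh3 (-1.31). The interaction call was lost under at least 1 alternative at 13 of these genes: Elf5 (16 settings), Krt14 (13), Mvd (10), Sgsh (9), Col4a6, Lbhd2 and Mcam (8 each), Socs3 (7), Opn1mw (6), Cdh3 (5), Psd2 (2), and Arhgef25 and Kcnmb1 (1 each).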

How the results depend on the processing

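Of 234 tested named genes 201 were called; 180 kept the call and direction under every alternative run, 21 lost the call under at least 1 and 0 reversed. Of the genes not called, 20 passed under at least 1 alternative: 17 with array weights, 13 when only the 8 pregnant arrays were fitted, 8 with chip as a block and 5 with the replicate block (Aqp3, Gata3, Atf3, Cdkn2c and Lum). Probes higher in luminal cells numbered 4464, 2876 under median scaling and 6712 with array weights. Positive interactions numbered 995 probes and 1568 with array weights, negative ones 592, 270 under median scaling and 1132 with array weights. Leaving out 1 array gave 3309 to 3632 probes higher in MaSC-enriched and 3723 to 4137 in luminal cells (genes 2006 to 2201 and 2207 to 2384), and 736 to 899 positive and 402 to 518 negative interactions. With the replicate number as a block the probes were 3967 and 4761, and the interactions 1150 and 728; the numbers share no stated pool. Among genes not called, the sign turned for Hspa1a (-0.18, mean of probes), Pgr (-0.00878, array weights), Sox10 (0.16, cyclic loess; -0.11 to 0.0778 leaving out 1 array) and Mb (0.0524 under cyclic loess, 0.0216 under median scaling, 0.0786 with chip as a block; -0.19 to 0.0461 leaving out 1 array). List medians turned within chip 3 for cadherins and junctions (0.23), cell cycle genes (-0.31), fibroblast markers (-0.17), EGF family (0.00612) and housekeeping genes (-0.0178). Within chip 4 they turned for EGF family (0.30), sterol (0.0126), secretory (0.13), cadherin (0.108) and Notch genes (-0.0504), Wnt ligands (0.0358) and skeletal muscle markers (-0.0382). They turned with the mean of probes for leukocyte markers (-0.11) and housekeeping genes (-0.0356), under cyclic loess for luminal factors (0.0698), cadherins (0.0127) and secretory genes (0.105), with chip as a block for cadherins (0.102), with array weights for Wnt ligands (0.0472), and on leaving out single arrays for Wnt ligands (up to 0.0374), secretory genes (0.0224) and cell cycle genes (-0.00123). The cause was not tested. Signal near background and near the top of the scale limits both ends.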

Other observations

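Cell adhesion genes were among the 86 called in opposite directions in pregnant and virgin mice. Alcam, an adhesion molecule of the immunoglobulin family, differed by 1.69 (MaSC-enriched minus luminal, log2) in pregnancy and -3.44 in virgins, and the alpha protocadherins Pcdha6 by 1.74 and -3.25 and Pcdhac2 by 1.13 and -3.20. Lmo7, a junction-associated protein, went from -2.25 in virgins to 2.64. In the other direction, Tnfrsf19, a receptor of the TNF family, differed by -2.20 in pregnancy and 1.66 in virgins, Vdr, the vitamin D receptor, by -1.38 and 0.97, and St6gal1, a sialyltransferase, by -0.73 and 2.22. The alpha protocadherins share exons, as given above for Pcdha7, so their probes may not be separate readings. All 7 were picked with their values in view, and the share of adhesion genes among the 86 was not counted.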
